A study of Mus musculus with 6 samples.

Results

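The genes described here encode the constitutive proteasome: the subunits of its core particle and of its regulatory particle, with the assembly chaperones, activators and inhibitor that carry the same symbol prefix. They were measured in colon epithelium of 6 control mice on a standard diet and 6 mice fed 0.4% ursodeoxycholic acid (UDCA), a bile acid of low toxicity to cells. RNA of 2 animals was pooled for each array, which gave 3 control arrays (pools 1+2, 3+4 and 5+6) and 3 UDCA arrays with the same pool names. No source used here gives strain, age or length of feeding, and the labels carry a rat cell line tag, IEC-6, beside the mouse tissue. Members were all genes whose probe sets bear 1 platform symbol that starts with Psma to Psmg and a digit, leaving out the immunoproteasome genes Psmb8, Psmb9 and Psmb10 and the activator genes Psme1 and Psme2. That gave 44 of 12393 named genes, from 81 probe sets. Where a gene had several, its representative was chosen by the highest mean intensity over the 6 arrays, so this mean is not a result. Of the 44 genes, 15 encode core subunits, 17 regulatory particle subunits, 7 assembly chaperones and 3 an activator or inhibitor. The other two, Psmc3ip and Psme3ip1, are named after a proteasome protein that their product binds and encode no proteasome subunit.

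The proteasome degrades proteins that have been tagged with ubiquitin. Its core particle is a barrel of alpha and beta rings, with the proteolytic sites inside formed by the beta subunits Psmb5, Psmb6 and Psmb7. The regulatory particle caps the barrel: its base holds a ring of Psmc ATPases that unfold the substrate, and its lid removes the ubiquitin chain. Genes of both particles are known to be induced together by the transcription factor Nfe2l1 (NRF1) when proteasome activity is short, through antioxidant response elements in their promoters. In the epithelium, interferon-induced subunits can replace the catalytic ones and give the immunoproteasome.

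Affymetrix signal intensity was deposited on a linear scale, with array medians of 67.4 to 84.0 in control and 68.2 to 87.3 in UDCA pools. The arrays were therefore quantile-normalized, and signals below are normalized unless they are called deposited. Folds were fitted on log2(signal + 16), a scale that understates the change of dim genes. Epithelial markers were bright, with mean control signals of 6741 for Epcam and 10400 for Krt8, while 0 of the 32 markers of T and NK cells, B and plasma cells, myeloid cells, stroma, endothelium and smooth muscle passed the filter. For Actb, the 3' control probe set had 1.15 to 1.25 times the signal of the 5' one. The mean of the 8 measured epithelial markers lay at -0.27, -0.08 and 0.10 log2 units from its 6-array mean in control pools 1+2, 3+4 and 5+6, and at 0.13, 0.07 and 0.05 in the UDCA pools. Cdx2, an intestinal transcription factor, varied most among them, from 118.5 in control pool 1+2 to 737.4 in UDCA pool 5+6. Its log2 fold change (UDCA minus control) was 1.01 (SE 0.53), while the median of the 8 markers was 0.040. Their part in the results below was not tested. In such bulk samples fewer cells of a type and less RNA per cell cannot be told apart, and the precision is limited by 3 arrays per group.

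The proteasome genes lay slightly higher in the UDCA pools, and no single gene passed the test. Of the 44 members, 42 passed the intensity filter, which kept the upper 50% of probe sets by mean. Among these 42, 40 had a log2 fold change (UDCA minus control) above 0, against 50.2% of the 6770 genes tested. The median was 0.17 over the members and 0.00090 over all genes. After adjustment over all 11313 probe sets tested, 0 members passed in limma at 0.05, where 0.0148% of genes did, 1 gene in all. At an unadjusted p under 0.05, 12 members lay higher (28.6%), beside 7.28% of all genes and 7.15% of those in the upper 25% by mean, and 0 lay lower, beside 7.10%. The 3 UDCA arrays lay above all 3 control arrays for 19 members (45.2%), beside 11.1% of all genes, and below them for 0, beside 8.64%. The highest of the 6 arrays was a UDCA array for 37 of the 42, and the lowest a control array for 37, against 53.4% and 49.7% of all genes. These counts describe genes measured on the same 6 arrays, which are not independent of each other, so no p is given for the group. With 3 arrays a side, the smallest p of an exact permutation test on a single gene is 0.1 (two-sided).

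**Figure D1:**
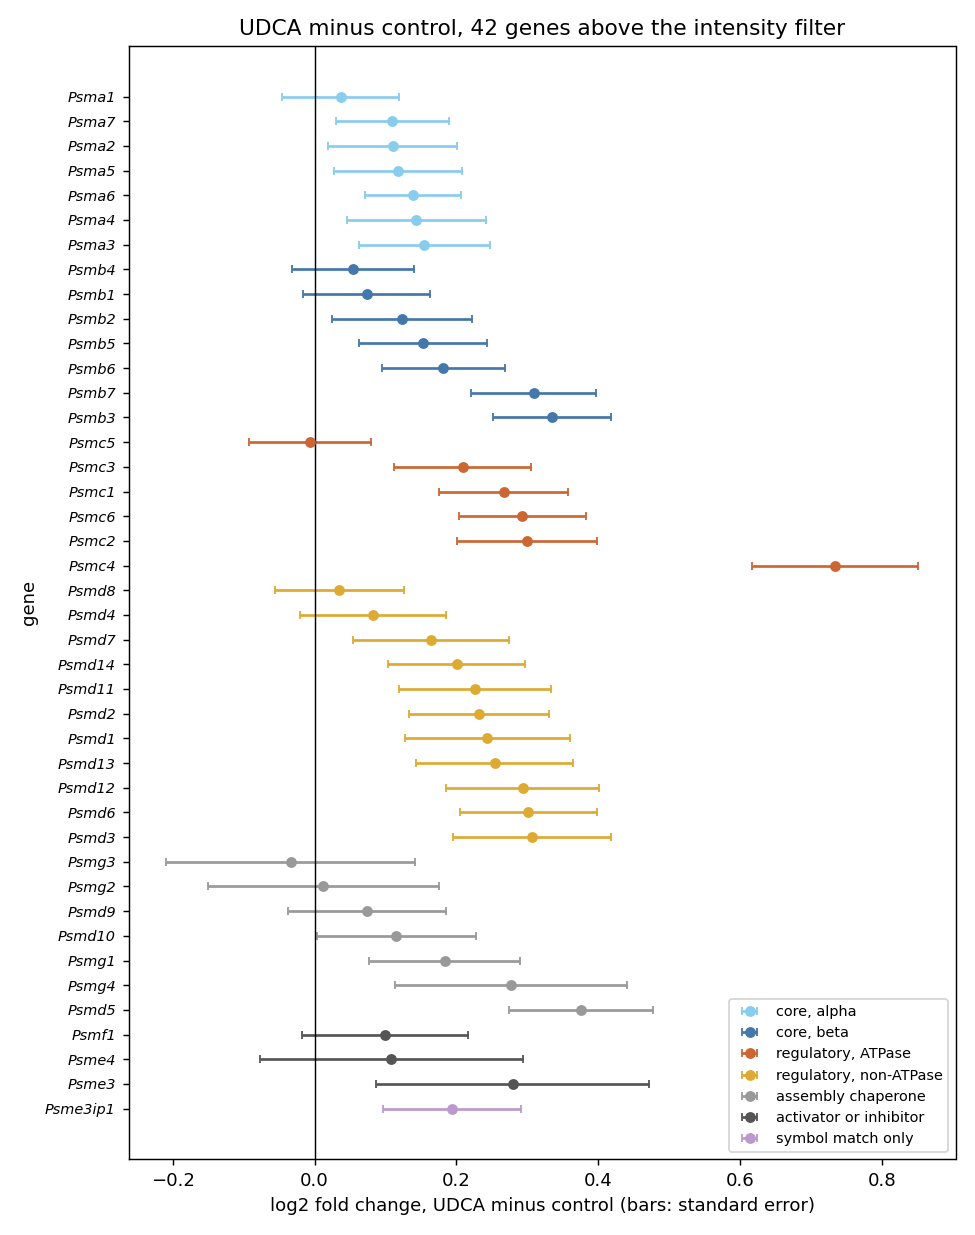
Log2 fold change (UDCA minus control, horizontal axis) of the 42 genes above the intensity filter, one row per gene, coloured by role, with bars for the standard error. Most points lie between 0 and 0.40, Psmc4 stands alone at 0.73, and Psmc5 and Psmg3 lie just below 0.

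The alpha subunits, which form the outer rings of the core and its gate, had log2 fold changes of 0.037 to 0.15 over 7 genes, with a median of 0.12. Psma3 had signals of 2342, 2076 and 2612 in control pools and 2664, 2557 and 2578 in UDCA pools. Its control pool 5+6 lay within the UDCA range, so the groups overlapped. The fitted difference was 0.15 (SE 0.09; limma adjusted p = 0.464), the highest of the 7, and 0.072 without control pool 3+4 or 0.24 without control pool 5+6. Psma1 had the lowest difference, with signals of 1803, 1772 and 1961 in control and 1997, 1891 and 1791 in UDCA pools, a difference of 0.037 (95% interval -0.15 to 0.22). Psma7 had 0.11, with control signals of 1224 to 1286 just below UDCA signals of 1317 to 1382. Psma8, the alpha subunit of the testis, lay below the filter, with signals of at most 5.75 on any array.

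The catalytic beta subunits had differences from 0.15 to 0.31, and their 95% intervals overlapped. Psmb7, which carries the trypsin-like site, had signals of 2785, 2636 and 3014 in control pools and 3775, 3143 and 3559 in UDCA pools. All UDCA arrays lay above all control arrays, and the difference was 0.31 (SE 0.09; unadjusted p = 0.00724, limma adjusted p = 0.288). Psmb6, with the caspase-like site, had 1083, 1156 and 1144 in control and 1305, 1205 and 1335 in UDCA pools, a difference of 0.18 (SE 0.09; limma adjusted p = 0.387) with separate groups. Psmb5, with the chymotrypsin-like site that proteasome inhibitors target first, had 1187, 1190 and 1370 against 1380, 1411 and 1375. Here control pool 5+6 lay just below the lowest UDCA pool, and the difference was 0.15 (SE 0.09; limma adjusted p = 0.462). The difference between these catalytic genes was not tested.

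Psmb3, a structural beta subunit without an active site, had the largest difference of the core. Its signals were 1110, 1178 and 1151 in control pools and 1489, 1371 and 1492 in UDCA pools, so the groups stood well apart. The log2 fold change was 0.33 (SE 0.08; unadjusted p = 0.00353, limma adjusted p = 0.264), a fold of 1.26. Psmb1, Psmb4 and Psmb2, also structural, had 0.074, 0.054 and 0.12 with overlapping groups. Over the 14 core genes measured, the median was 0.13, and 14 were positive. Of them 2 (14.3%), Psmb3 and Psmb7, lay higher at an unadjusted p under 0.05, beside 7.28% of all genes.

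The regulatory particle had the larger differences. Of its 17 genes that the symbol rule matched, all measured, 16 were positive, with a median of 0.24. Of these 17, 9 (52.9%) lay higher at an unadjusted p under 0.05, beside 7.28% of all genes. Psmc4, an ATPase of the base, stood out among the members. Its deposited signals were 815.2, 1276.8 and 1302.8 in control pools and 2153.1, 2134.0 and 1800.4 in UDCA pools, and its normalized signals 984, 1302 and 1203 against 2082, 1816 and 1907. On both scales every UDCA array lay above every control array, and control pool 1+2 was the lowest. The log2 fold change was 0.73 (SE 0.12; unadjusted p = 1.93e-04, limma adjusted p = 0.264), a fold of 1.66. As deposited, without scaling between arrays, it was 0.86 and passed (limma adjusted p = 0.0205), the only member that did, where 0.547% of genes passed as higher. On that scale 53 genes passed in either direction, against 1 after quantile normalization and 1 after median centring, and of the 17 settings run Psmc4 passed only in this one. A second Psmc4 probe set had 0.30 (SE 0.11; unadjusted p = 0.0207), so the size depended on the probe set.

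By their representative probe sets, the other ATPase genes were closer together, except for Psmc5. Psmc2 had signals of 1415, 1286 and 1575 in control and 1722, 1865 and 1675 in UDCA pools, a difference of 0.30 (SE 0.10; limma adjusted p = 0.314). Psmc6, Psmc1 and Psmc3 had 0.29, 0.27 and 0.21, each with UDCA arrays above all control arrays, though for Psmc3 only by 1283.8 against 1281.9. Further probe sets of Psmc6 had 0.029 and -0.040, and that of Psmc2 had 0.20, all with overlapping groups. Psmc5, a subunit of the same ring, had 923, 968 and 951 in control and 917, 976 and 935 in UDCA pools. Its groups lay on top of each other, with a difference of -0.0068 after quantile normalization (95% interval -0.20 to 0.19), 0.10 as deposited and 0.093 after median centring. The interval of Psmc4 was 0.47 to 1.001, and the difference between both genes was not tested.

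**Figure D2:**
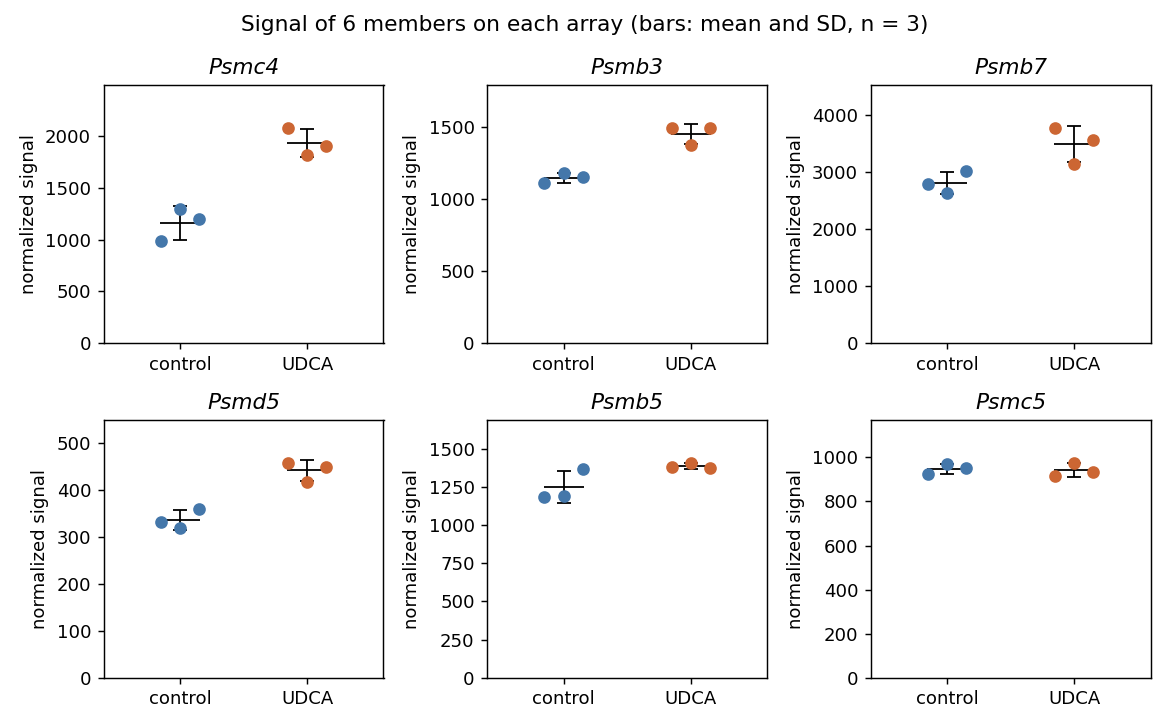
Normalized signal of 6 members on each array, with points for the 3 control (blue) and 3 UDCA (orange) pools and bars for the mean and SD (n = 3). Psmc4, Psmb3, Psmb7 and Psmd5 have separate groups, the control and UDCA points of Psmb5 come close, and those of Psmc5 overlap.

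The promoters of Psmc4, Psmb3 and Psmd5, of the catalytic Psmb5 and of Psmc5 are shown. Psmc5 and Psmc4 had the lowest and highest differences among the measured subunits. Psmd5 had the highest of the chaperones that assemble them, and Psmg3, the lowest, is not shown. Each line gives the 250 bases before the RefSeq start (GRCm38.p6), 5' to 3' in the direction of the gene. Capitals mark the core of the antioxidant response element, TGANNNNGC, and the CCAAT box, CCAAT, each searched on both strands, with overlap allowed.
Psmc4, chr7:28050093-28050342, minus strand: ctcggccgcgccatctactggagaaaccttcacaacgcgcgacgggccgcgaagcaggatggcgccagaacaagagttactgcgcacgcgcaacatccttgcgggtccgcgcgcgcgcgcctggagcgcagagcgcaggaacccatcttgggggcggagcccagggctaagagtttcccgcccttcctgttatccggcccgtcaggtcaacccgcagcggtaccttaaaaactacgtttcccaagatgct
Psmb3, chr11:97703184-97703433, plus strand: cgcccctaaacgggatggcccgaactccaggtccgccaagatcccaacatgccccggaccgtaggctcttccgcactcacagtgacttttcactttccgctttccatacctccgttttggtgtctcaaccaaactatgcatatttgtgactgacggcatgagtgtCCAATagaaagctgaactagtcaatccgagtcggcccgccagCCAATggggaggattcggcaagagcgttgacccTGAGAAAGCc
Psmd5, chr2:34870963-34871212, minus strand: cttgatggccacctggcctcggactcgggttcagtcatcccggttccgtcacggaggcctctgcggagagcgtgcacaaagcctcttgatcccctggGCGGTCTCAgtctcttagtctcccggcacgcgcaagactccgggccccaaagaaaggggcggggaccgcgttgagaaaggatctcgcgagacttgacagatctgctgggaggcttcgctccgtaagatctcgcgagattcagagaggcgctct
Psmb5, chr14:54617996-54618245, minus strand: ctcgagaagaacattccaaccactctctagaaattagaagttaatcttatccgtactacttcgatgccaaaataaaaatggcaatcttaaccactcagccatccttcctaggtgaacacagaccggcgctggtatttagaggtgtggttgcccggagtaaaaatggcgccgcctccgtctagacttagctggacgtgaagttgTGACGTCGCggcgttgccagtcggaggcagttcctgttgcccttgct
Psmc5, chr11:106255935-106256184, plus strand: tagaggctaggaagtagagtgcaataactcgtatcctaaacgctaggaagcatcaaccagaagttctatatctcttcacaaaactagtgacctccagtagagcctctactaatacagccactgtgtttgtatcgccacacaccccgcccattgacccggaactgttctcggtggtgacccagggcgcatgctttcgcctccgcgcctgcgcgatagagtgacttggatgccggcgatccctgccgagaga
Psmb3 holds 1 response element core, which ends 1 base before its start, and 2 CCAAT boxes. Psmd5 and Psmb5 hold 1 response element core each and no CCAAT box, and neither motif lies in the windows of Psmc4 or Psmc5. Promoters were found for 36 of the 44 genes, 39 windows in all, of which 16 (41%) hold the response element core and 14 (35.9%) a CCAAT box. Of all 32851 promoter windows of the same length, 35.2% and 33.8% hold these motifs. A match is a description of letters, not of a bound site.

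The non-ATPase subunits of the regulatory particle had a median of 0.23 over 11 genes, all positive. Psmd3, a structural subunit of the lid, had signals of 593, 509 and 637 in control pools and 743, 719 and 693 in UDCA pools. These groups were separate, with a difference of 0.31 (SE 0.11; unadjusted p = 0.0232, limma adjusted p = 0.317). Psmd6, also of the lid, had 1053, 1090 and 1254 against 1349, 1463 and 1375, a difference of 0.30 (SE 0.10; limma adjusted p = 0.314). Psmd12 and Psmd13 of the lid had 0.29 and 0.25. Psmd14, the enzyme that cuts the ubiquitin chain off the substrate, had 1261, 1131 and 1343 in control and 1413, 1522 and 1359 in UDCA pools. Its groups were separate by a small margin, with a difference of 0.20 (SE 0.10; limma adjusted p = 0.390). Psmd1 and Psmd2, the large scaffold subunits of the base, had 0.24 and 0.23.

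The smallest differences among these subunits, by representative probe set, were those of Psmd8, Psmd4 and Psmd7. Psmd8, of the lid, had 1217, 1304 and 1239 in control and 1290, 1188 and 1381 in UDCA pools, a difference of 0.035 (95% interval -0.17 to 0.24). Psmd4, the ubiquitin receptor, had 0.082 with overlapping groups, as UDCA pool 5+6 had the lowest of the 6 signals (809). Another Psmd4 probe set had 0.26 with separate groups. Psmd7, the lid partner of Psmd14, had 0.16. Split by position, the 9 base genes and the 8 lid genes among the members had medians of 0.24 and 0.24, a split made after their values were seen.

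Core and regulatory particle were set side by side on each array as the mean deviation of their genes from each gene's 6-array mean. The core lay at -0.12, -0.10 and 0.0061 log2 units in control pools 1+2, 3+4 and 5+6, and at 0.11, 0.015 and 0.089 in the UDCA pools. The regulatory particle lay at -0.16, -0.17 and -0.030 in control and at 0.17, 0.12 and 0.078 in UDCA pools. Every UDCA array was above every control array for either particle, and control pool 5+6 was nearest to them. For the core the gap between control pool 5+6 and UDCA pool 3+4 was small beside the SD of 0.07 over control pools (n = 3). The regulatory minus the core mean was -0.039, -0.070 and -0.036 in control and 0.054, 0.10 and -0.011 in UDCA pools. With Psmc4 included, these groups did not overlap, though UDCA pool 5+6 lay close to the controls. A margin this small can rest on Psmc4 alone, so the separation is not a result about the regulatory particle as a whole. The mean of the regulatory minus core value was -0.049 ± 0.019 in control and 0.049 ± 0.057 in UDCA pools (SD, n = 3). Its difference of 0.097 was not tested, because the members had been chosen with results known. Psmc4, at 0.73, lay far above the next regulatory gene, Psmd3 at 0.31, and the comparison of means was not made without it. The median of the regulatory particle exceeded that of the core in 17 of 17 settings, by 0.077 (without UDCA pool 1+2) to 0.14. The other variance settings and the pool block cannot change a median, so they only repeat the main values in this count.

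**Figure D3:**
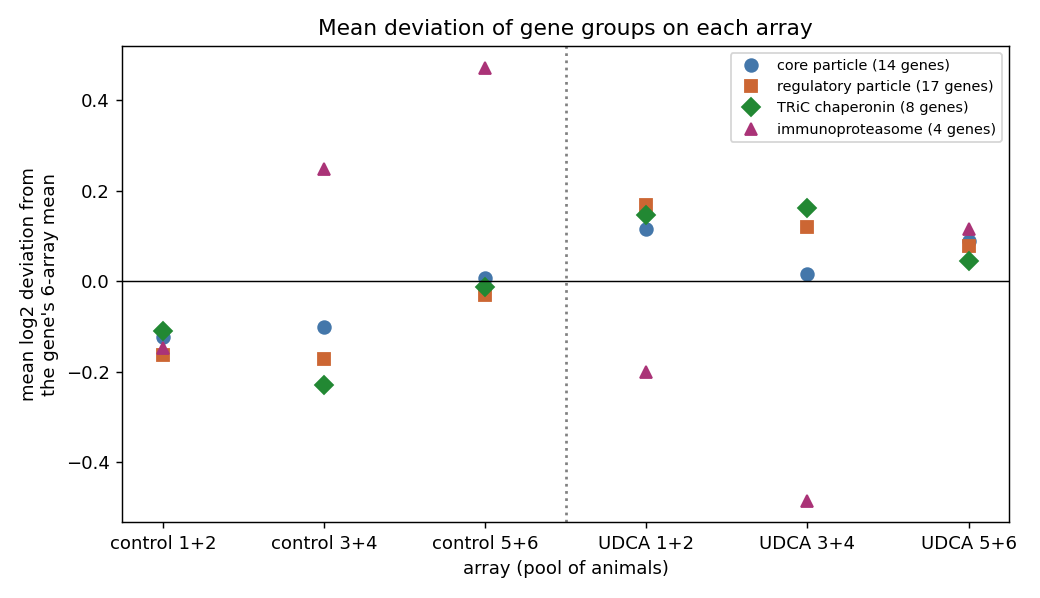
Mean log2 deviation of 4 gene groups from each gene's 6-array mean (vertical axis) on each of the 6 arrays (horizontal axis). Core particle, regulatory particle and TRiC lie at or below about 0.01 on the control arrays and above it on the UDCA arrays, while the immunoproteasome points spread from -0.48 to 0.47 in another order.

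**Figure D4:**
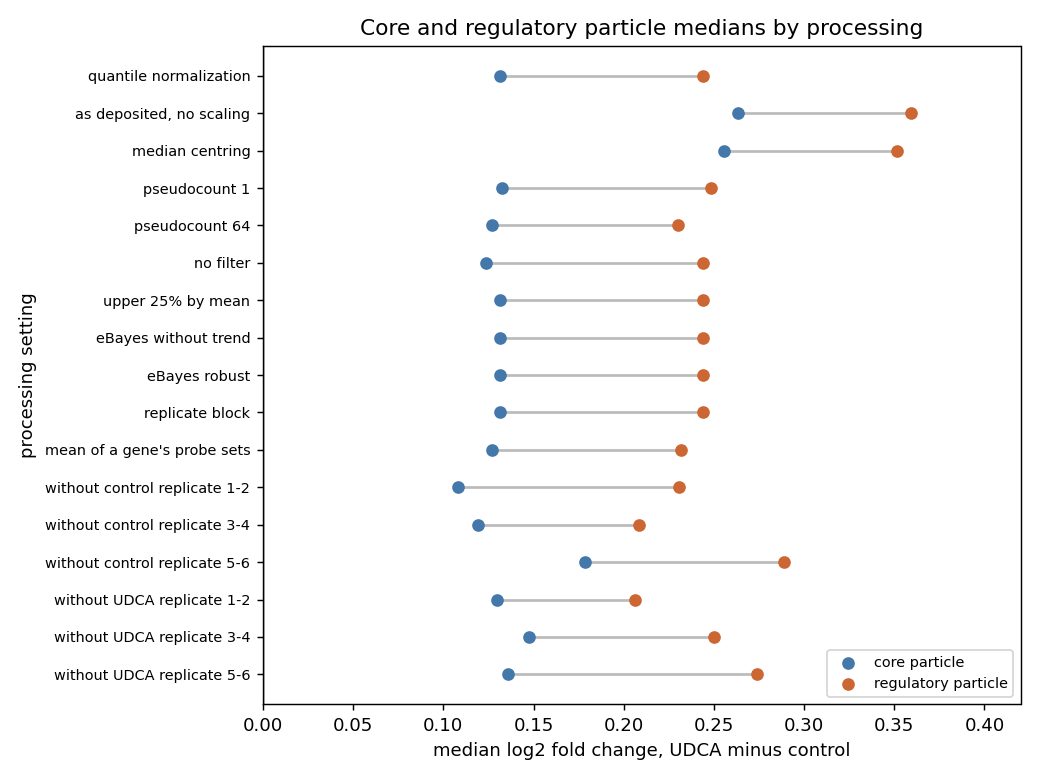
Median log2 fold change (horizontal axis) of core particle and regulatory particle genes in 17 processing settings (rows), joined by a line in each. The regulatory particle lies to the right of the core in every row, and both lie further right as deposited (0.26 and 0.36) and after median centring (0.26 and 0.35). Rows for the other variance settings and the pool block repeat the main medians, which they cannot change.

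Scaling changed the size of these differences. As deposited, 42 of the 42 genes were positive, with a median of 0.28, beside 64.7% of all genes and a median of 0.08, and 6 had an unadjusted p under 0.05, beside 4.70% of all genes. After median centring, 42 were positive, with a median of 0.27, beside 63.5% and 0.07, and 22 had an unadjusted p under 0.05, beside 13.2%. As deposited, the UDCA arrays lay above all control arrays for 7 members, Psmc4, Psmc1, Psmc6, Psmb3, Psmb6, Psmb7 and Psmd5, beside 3.61% of all genes.

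The assembly chaperones had a median of 0.12 over 7 genes, 6 of them positive. Psmd5, which holds ATPase subunits before the base is built, had signals of 331, 319 and 360 in control pools and 459, 418 and 450 in UDCA pools. The groups were well apart, and the difference was 0.38 (SE 0.10; unadjusted p = 0.00544, limma adjusted p = 0.284). Psmd9 and Psmd10, which serve the same step, had 0.074 and 0.12 with overlapping groups. Of the chaperones of the alpha ring, Psmg4 and Psmg1 had 0.28 and 0.18, and Psmg2 and Psmg3 had 0.012 and -0.034 with wide intervals of -0.36 to 0.38 and -0.43 to 0.37. Psmg3 was 0.040 as deposited and 0.032 after median centring. Psmg3 signals ran from 211 to 352 within the control pools alone.

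The 3 genes for activators and the inhibitor of the core overlapped between groups. Psme3, a nuclear activator, had 366, 261 and 310 in control and 436, 443 and 281 in UDCA pools, a difference of 0.28 (SE 0.19; limma adjusted p = 0.523) with UDCA pool 5+6 among the controls. Without that pool it was 0.48, and without control pool 3+4 it was 0.16. Psme4, an activator linked to histone breakdown, had 0.11 (SE 0.19), and UDCA pool 5+6 was the highest of its arrays (1328). Psmf1, an inhibitor of the core in cell-free assays, had 0.099 (SE 0.12). Of the genes that share only the symbol start, Psme3ip1 had 0.19 (SE 0.10), and Psmc3ip, a factor of meiotic recombination, lay below the filter with signals of 46.5 to 65.4.

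Other probe sets gave a second reading for some genes. Of the 37 that did not represent their gene, 21 in 16 genes passed the filter, of which 16 had the sign of the representative and 5 the opposite. Their median was 0.097, and 17 of the 21 lay below the value of their representative. The 10 for the regulatory particle had a median of 0.23, and the 5 for the core one of 0.095. The second probe sets of Psmb3, Psmd6 and Psmd4 had 0.30, 0.26 and 0.26, where their representatives had 0.33, 0.30 and 0.082. Probe sets of Psmc6 disagreed, with 0.029 and -0.040 beside 0.29, and those of Psmf1 had -0.23 and -0.010.

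Genes that work with the proteasome were read from lists chosen with earlier results of these data known. Of 7 partners of the particle, 0 passed, with 6 positive and a median of 0.12. Txnl1, a thioredoxin-like protein of the regulatory particle, had 0.29 (SE 0.11; limma adjusted p = 0.318) and 0.17 with its probe sets averaged. Usp14, a deubiquitinase, had 0.23, Pomp, the maturation factor of the core, had 0.12, and Sem1 had 0.018. Ecpas, a scaffold that binds both particles, went the other way, with signals of 309, 317 and 299 in control and 230, 262 and 266 in UDCA pools. Those groups were separate, with a difference of -0.27 (SE 0.10; unadjusted p = 0.0286, limma adjusted p = 0.323). Among 9 genes of the Nfe2l1 route, 5 were positive, with a median of 0.074, and 0 passed. Nfe2l1 itself had 554, 477 and 485 in control and 479, 483 and 432 in UDCA pools, a difference of -0.11 (95% interval -0.36 to 0.13), and Nfe2l2 had 0.10. Vcp, the segregase that pulls Nfe2l1 from the endoplasmic reticulum, had 0.21 (SE 0.09; limma adjusted p = 0.360), Ngly1, which strips its glycans, -0.13, and Mafk, a partner on DNA, -0.26, which was 0.011 without UDCA pool 5+6. The shuttle factors that carry ubiquitin conjugates had a median of 0.11 over 4 genes, with Rad23b at 0.23, Ubqln1 at 0.13 and Ubqln2 at 0.090. The COP9 signalosome, a complex built like the lid, had a median of 0.084 over 9 genes, 7 of them positive, with Gps1 at 0.28, Cops5 at 0.16 and Cops8 at 0.16.

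The immunoproteasome genes had negative values on the same scale. Psmb8, which replaces Psmb5, had signals of 158, 301 and 287 in control and 152, 77.7 and 203 in UDCA pools, a difference of -0.76 (SE 0.33; limma adjusted p = 0.363). Psmb9, which replaces Psmb6, had 226, 236 and 402 against 189, 140 and 231, a difference of -0.57 (SE 0.24; limma adjusted p = 0.358). In both, UDCA pool 5+6 lay within the control range, so the groups overlapped. Single arrays moved both values, Psmb8 to -0.41 without UDCA pool 3+4 and Psmb9 to -0.31 without control pool 5+6. Psmb10, which replaces Psmb7, and Psme1 had -0.083 and -0.11, and 0.025 and 0.012 as deposited. The mean deviation of the 4 genes spread widely between pools of 1 group, with SDs of 0.31 in control and 0.30 in UDCA pools. The core, a mean over 14 genes, had 0.07 and 0.05. The SE of the difference was 0.33 and 0.24 for Psmb8 and Psmb9, and 0.15 and 0.13 for Psmb10 and Psme1. The TRiC chaperonin, which folds actin and tubulin, had 8 of 8 genes positive, beside 50.2% of all genes, and 0 passed. Its median was 0.20, beside 0.13 of the core and 0.24 of the regulatory particle. The UDCA arrays lay above all control arrays for 7 of the 8 (87.5%), beside 11.1% of all genes. Among the 7 were Cct5 and Cct8 with 0.22 and 0.28. Cct3 was the exception, with 0.47 and overlapping groups, and 0.29 without control pool 3+4. As deposited, the UDCA arrays lay above all control arrays for 0 of the 8 TRiC genes, beside 3.61% of all genes. No test of a difference between these groups was made.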

How the data were processed

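Gene expression was measured on Affymetrix arrays in 3 control and 3 UDCA pools of mouse colon epithelium. Per the labels' protocols, biotin-labelled cRNA was made from 3 µg of Trizol-extracted total RNA, and the submitters' processing notes name GCOS. No source used here gives its version, its scaling or its detection calls. The deposited intensity values, 0 to 12401, are 1 signal per probe set for 22690 probe sets. The 64 control probe sets were left out. A deposited table of group averages and folds was not used here.

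Log2(intensity + 16) was quantile-normalized. Testing covered 11313 probe sets, the upper 50% ranked on mean signal (from 75.7), with limma 3.58.1 in R 4.3.3 (lmFit, eBayes with trend, two-sided), with Benjamini-Hochberg adjustment over all of them and a threshold of 0.05. An earlier treatment used the deposited scale and found more false calls on it than its threshold allows in simulated data. Quantile normalization was taken here for that reason and because array levels differ. Names came from the platform annotation, with 691 probe sets of several symbols and 1606 unlisted ones unnamed. Promoters are RefSeq's (GRCm38.p6). The fit was tested on simulated data, in which the share of false calls on the deposited scale was only slightly above that after quantile normalization.

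The members and gene lists were chosen with earlier results of these data known. Named were the catalytic genes, the 4 largest and 4 smallest differences in each particle, all chaperones, activators, genes below the filter and immunoproteasome genes, and up to 3 genes by p in other lists. Further genes were named after their values were seen. Alternatives were other scaling, pseudocounts of 1 and 64, no filter, the upper 25%, other variance settings, the pool number as a block, averaging the probe sets of each gene, and each array left out. Pool numbers were not taken to pair the arrays. Deviations of same-numbered pools correlated at -0.11, 0.18 and 0.04 over genes, and those of differently numbered pools at -0.20 to 0.17. With 3 pools a group, these values cannot show whether same-numbered pools were handled together. The labels give separate pools of animals as replicates.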

Additional observations from a re-analysis of the deposited data

How the results depend on the processing

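The medians of members, core and regulatory particle stayed above 0 in all alternatives run, though the variance settings and the pool block cannot change them. As deposited they were 0.28, 0.26 and 0.36, and 1 member, Psmc4, passed in limma, on a scale where 53 genes passed against 1 after quantile normalization. After median centring they were 0.27, 0.26 and 0.35. The count of members with an unadjusted p under 0.05 and a positive difference, 12 here, was 6 as deposited and 22 after median centring. The shares over all genes were 7.28%, 4.70% and 13.2% in the same order. Leaving out single arrays gave 7 (without control pool 3+4 or UDCA pool 1+2) to 19 (without control pool 5+6), with medians of 0.15 to 0.22 for members, 0.11 to 0.18 for the core and 0.21 to 0.29 for the regulatory particle, and 0 members passed. With the pool number as a replicate block the count was 11 and the median of members 0.17, and no call changed. For the left-out arrays and the block, the shares over all genes are not given here. Their counts are therefore not a result about the members. Without the genes that share only the symbol start, a setting chosen after seeing the data, the count was 12 and the median 0.16.

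Some single genes changed sign, most of them near 0. Psmc5, Psmg3, Psmb10 and Psme1 had 0.10, 0.040, 0.025 and 0.012 as deposited and 0.093, 0.032, 0.017 and 0.0038 after median centring. With all probe sets of each gene averaged, Psmb4 and Psmf1 had -0.048 and -0.048. Over left-out arrays the ranges were -0.032 to 0.012 for Psmc5, -0.0015 to 0.084 for Psma1, -0.018 to 0.090 for Psmd8, -0.090 to 0.25 for Psme4, -0.082 to 0.15 for Psmg2, -0.20 to 0.15 for Psmg3 and, from -0.26 with all arrays, -0.46 to 0.011 for Mafk. Psmc4 ran from 0.62 (without control pool 1+2) to 0.82 (without control pool 3+4). Of 27 named members tested, 19 were positive in all 17 settings. Some of these members were named for their large differences, and the variance settings and the pool block cannot change a sign. The count is therefore not a result about the members. Precision is limited by 3 arrays a group, and detection calls that would set signal against background were not used here.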
